A study of Mus musculus with 8 samples.

Results

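The transcription factors examined here set the fate and the differentiation of skin keratinocytes and are encoded by 10 genes, Trp63, Ovol1, Grhl1, Grhl3, Zfp750, Cebpa, Cebpb, Gata3, Prdm1 and Hopx. They were given as a list of symbols and found through their Ensembl identifiers in GENCODE M21 on the mouse build GRCm38. All 10 were among the 34070 identifiers of the count table, and all 10 passed the filter on low counts that left 19646 genes.

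RNA was sequenced from cell suspensions of the epidermis of adult mice, 18 to 25 weeks old, taken at zeitgeber time ZT4, which is 4 h after lights on. Both groups carried K14-Cre, a Cre recombinase driven by the keratin 14 promoter of basal keratinocytes. The 4 Bmal1cKO libraries came from K14-Cre;Bmal1flox/flox mice, in which keratinocytes and their progeny can lose Bmal1, a transcription factor gene of the circadian clock. The 4 Bmal1WT libraries came from K14-Cre;Bmal1wt/wt mice. Cells without keratin 14 promoter activity, such as Langerhans cells and T cells, keep Bmal1 in both groups. The labels name neither the deleted exons nor the sex, and they do not say that each library is a separate animal. The p-values cover only the spread among the 8 libraries. The comparison asks which epidermal transcripts depend on keratinocyte BMAL1 at this hour.

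The epidermis renews from a basal layer whose cells stop dividing, move upward and turn into spinous, granular and cornified cells. The protein p63, made from Trp63, holds cells in the epithelial lineage, and the other factors act in order as cells leave the basal layer: OVOL1 restrains proliferation, C/EBP factors and GATA3 act in the spinous layers, and GRHL3, ZFP750 and PRDM1 act in the late programme that builds the barrier. Most of the evidence for these roles comes from mouse knockouts. For ZFP750 it comes mainly from human cells, where the protein is called ZNF750.

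Total counts ran from 35685261 to 50396156 per library. Bmal1 itself (symbol Arntl) was at 46.1, 42.0, 49.1 and 48.7 CPM, the usual scaling of counts to library size, in Bmal1WT replicates 1 to 4 and at 32.0, 34.4, 37.6 and 30.7 CPM in Bmal1cKO replicates 1 to 4, counted over the whole gene. Every Bmal1cKO value was the lower one, with a change of -27.6% that missed the threshold in edgeR (adjusted p = 0.0611, 0.0358 with the replicate block). The clock target Nr1d1, which encodes REV-ERB alpha, averaged 118 ± 17.1 CPM in Bmal1WT against 2.58 ± 0.567 CPM in Bmal1cKO (mean ± SD, n = 4) and fell (adjusted p = 9.09e-07, edgeR). The clock repressor gene Cry1 rose, with 9.52 ± 2.49 against 65.9 ± 7.07 CPM (adjusted p = 6e-05, edgeR). Keratinocyte genes dominated the libraries, with Krt5 at 7547 to 9262 CPM and Krt10 at 7767 to 13733 CPM. Xist, the RNA of the inactive X chromosome of female cells, was at 1147 to 1752 CPM in replicates 1 and 3 of both groups and at 0.104 to 2.08 CPM in replicates 2 and 4. Each group thus holds libraries from at least 2 animals. The libraries were also split into 4 with high and 4 with low Xist, 2 of each in either genotype.

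None of the 10 transcription factor genes passed the test between the genotypes. With edgeR's quasi-likelihood test at an adjusted p under 0.05, 0 of 10 were called, against 0.173% of all genes tested, and limma voom also called 0. DESeq2 called 0 of 10 against 1.18% of all genes, and edgeR with the replicate number as a block 0 of 10 against 0.774%. At an unadjusted p under 0.05 there were 3, Zfp750, Prdm1 and Hopx, each with the lower level in Bmal1cKO. Over all genes 8.30% had such a p. In the same 3 genes the 4 values of one group did not overlap those of the other, which held for 5.15% of all genes. The median log2 fold change of the 10 genes, Bmal1cKO over Bmal1WT, was -0.07, with 2 positive and 8 negative values, against a median of -0.01 over all genes. In bulk RNA, fewer cells of a type and less RNA per cell cannot be told apart.

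**Figure D1:**
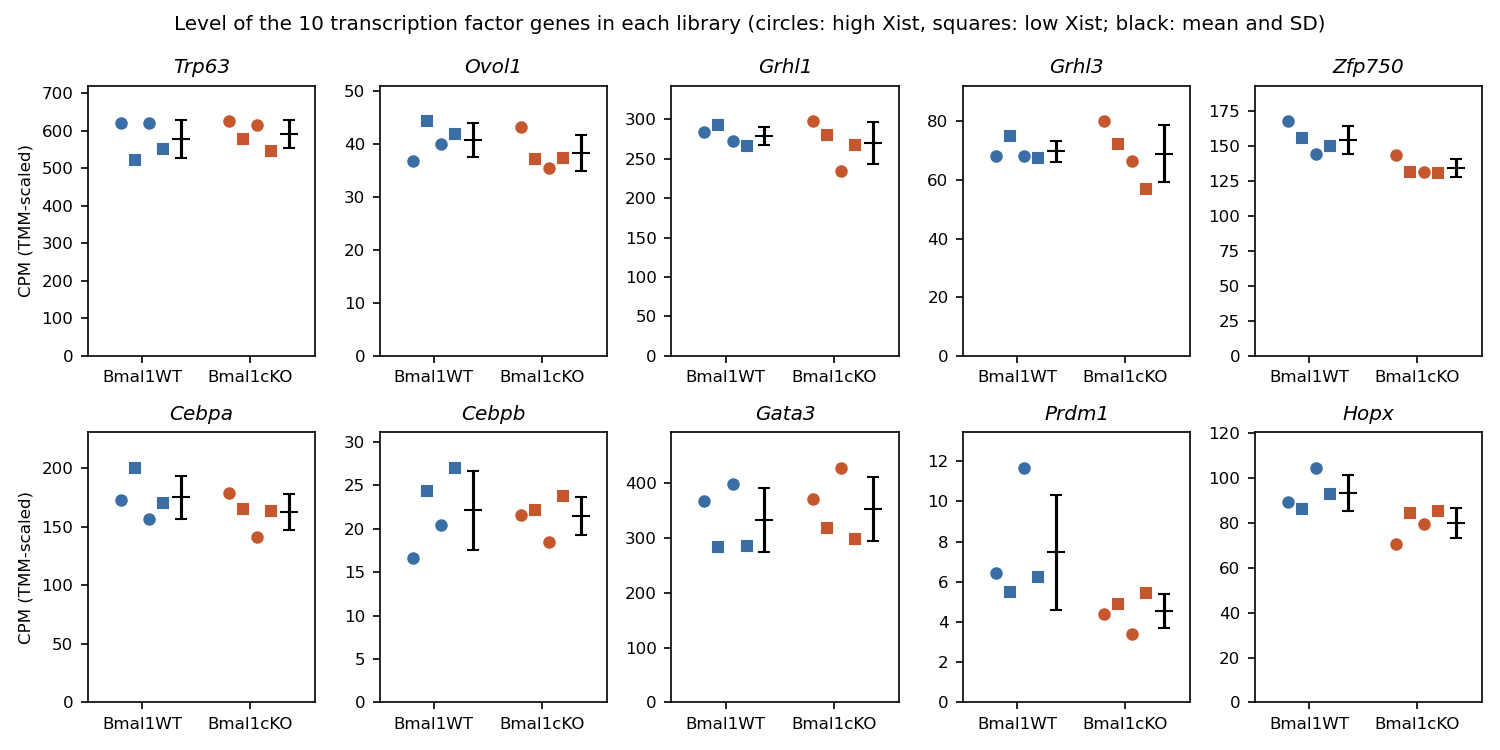
Level in CPM on TMM-scaled library sizes (vertical axes, each from 0) of the 10 genes in the 4 Bmal1WT (blue) and 4 Bmal1cKO (orange) libraries, replicates 1 to 4 from left to right. Circles are libraries with high Xist, squares those with low Xist, and black marks give the mean and SD. The groups overlap for all genes but Zfp750, Prdm1 and Hopx, and circles lie above squares for Gata3 and Trp63.

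The genes differed widely in level. Per kilobase of exon, so that genes can be compared, Gata3 had the highest mean in Bmal1WT with 83.7 ± 14.6 CPM per kb (SD, n = 4). Trp63 followed with 68.9 ± 5.89, Cebpa with 66.4 ± 6.89 and Hopx with 61.5 ± 5.35 CPM per kb, and the ranges of each of these neighbours overlapped. Grhl1 with 50.3 ± 2.13 and Zfp750 with 47.8 ± 3.11 CPM per kb overlapped each other and lay below Hopx without overlap. Grhl3 stood apart at 25.0 ± 1.29 CPM per kb. Cebpb at 14.7 ± 3.04 and Ovol1 at 11.7 ± 0.904 CPM per kb overlapped, and Prdm1 was lowest by far with 1.34 ± 0.509 CPM per kb. The order of the 10 means was the same in Bmal1cKO, where Hopx and Grhl1 overlapped and Gata3 and Trp63 did not.

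Trp63 (ENSMUSG00000022510, chr16:25683763-25892102, plus strand) encodes p63, whose loss leaves mice without a stratified epidermis. It was at 619, 521, 619 and 552 CPM in Bmal1WT replicates 1 to 4 and at 625, 578, 616 and 544 CPM in Bmal1cKO replicates 1 to 4. The groups overlapped almost completely, and within each the 2 libraries with high Xist were the upper ones. The log2 fold change was 0.03 ± 0.08 (SE; adjusted p = 0.964 in edgeR). Its 95% interval spans a change of -9.74% to 15.8%. Counts are summed over the gene, so the isoforms of p63 with and without the amino-terminal transactivation domain were not resolved.

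Ovol1 (ENSMUSG00000024922, chromosome 19), the zinc finger gene that acts as cells leave the cycle, ranged from 36.8 to 44.3 CPM in Bmal1WT and from 35.4 to 43.2 CPM in Bmal1cKO. The difference of -0.09 ± 0.08 on the log2 scale (SE; adjusted p = 0.842 in edgeR) has an interval of -16.9% to 6.02%. The 2 libraries at the ends of this range, Bmal1WT replicate 2 and Bmal1cKO replicate 3, were also the highest and the lowest for Cebpa.

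Grhl1 and Grhl3 encode grainyhead-like factors, which in mice act on desmosomes and on the formation and repair of the skin barrier. Grhl1 (ENSMUSG00000020656, chromosome 12) averaged 279 ± 11.8 CPM in Bmal1WT against 270 ± 26.6 CPM in Bmal1cKO (mean ± SD, n = 4), a difference on the log2 scale of -0.05 ± 0.08 (SE; adjusted p = 0.933 in edgeR) with an interval of -14.0% to 8.89%. Grhl3 (ENSMUSG00000037188, chromosome 4) was at 69.7 ± 3.59 and 69.0 ± 9.73 CPM, a log2 fold change of -0.02 ± 0.09 (adjusted p = 0.988 in edgeR) with an interval of -14.7% to 14.6%. Both genes had close values in Bmal1WT and spread more in Bmal1cKO, where Grhl3 ran from 56.9 to 80.0 CPM and Grhl1 from 234 to 297 CPM. Whether the spread itself differed was not tested.

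Zfp750 (ENSMUSG00000039238, chr11:121510978-121519333, minus strand) encodes a zinc finger factor of terminal differentiation. It was at 168, 156, 144 and 150 CPM in Bmal1WT replicates 1 to 4 and at 144, 132, 131 and 131 CPM in Bmal1cKO replicates 1 to 4. Every Bmal1cKO value lay below every Bmal1WT value, but only just: the nearest libraries were 0.226 CPM apart, with a counting error of 1.69 and 1.93 CPM. The log2 fold change was -0.20 ± 0.06 (SE), with an interval of -20.6% to -4.53%. It had the smallest p of the 10 genes, an unadjusted p = 0.0076 in edgeR that ranks 405 among 19646 genes, and missed the threshold (adjusted p = 0.368 in edgeR; over the alternatives the lowest was 0.149, with the replicate block, and the highest 0.865). The difference was -0.18 ± 0.10 in the libraries with high Xist and -0.22 ± 0.07 in those with low Xist. Zfp750 lies within an intron of Tbcd, which is on the other strand, and no exons overlap.

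Cebpa (ENSMUSG00000034957, chromosome 7) and Cebpb (ENSMUSG00000056501, chromosome 2) encode leucine zipper factors that together move basal cells into differentiation in mice. Cebpa averaged 175 ± 18.2 CPM in Bmal1WT against 162 ± 15.3 CPM in Bmal1cKO (mean ± SD, n = 4), a difference on the log2 scale of -0.11 ± 0.09 (SE; adjusted p = 0.823 in edgeR, interval -19.4% to 6.32%). Cebpb was at 16.6, 24.4, 20.4 and 27.0 CPM in Bmal1WT replicates 1 to 4 and at 21.5, 22.1, 18.4 and 23.7 CPM in Bmal1cKO replicates 1 to 4. The Bmal1WT libraries enclosed those of Bmal1cKO, with a log2 fold change of -0.04 ± 0.14 (SE; adjusted p = 0.976 in edgeR, interval -22.3% to 21.3%). Cebpb shares 312 bp of exon with Tmem189 on the other strand, which had 7977 counts in all against 7070 of Cebpb, and since the strand setting of the counting is not given its values are uncertain.

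Gata3 (ENSMUSG00000015619, chr2:9857078-9890034, minus strand) encodes a zinc finger factor of the epidermis and the inner root sheath that is also a master factor of T cells. It was at 366, 283, 398 and 285 CPM in Bmal1WT replicates 1 to 4 and at 370, 317, 428 and 298 CPM in Bmal1cKO replicates 1 to 4. The genotypes overlapped, and each Bmal1cKO library lay slightly above the Bmal1WT library of the same number. The log2 fold change was 0.08 ± 0.14 (SE; adjusted p = 0.936 in edgeR, interval -15.3% to 32.7%). With the replicate number as a block the error shrank, giving 0.09 ± 0.05 (adjusted p = 0.604 in edgeR).

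The levels of Gata3 did not overlap between libraries with high and low Xist. Its 4 values with high Xist ran from 366 to 428 CPM and its 4 values with low Xist from 283 to 317 CPM, a log2 difference of 0.40 ± 0.06 (SE; adjusted p = 0.0203 in edgeR with genotype as a term). This comparison was added after the data were seen. It called 1.84% of all genes and, of the 10, only Gata3, and the other 2 genes without overlap in this split missed it. Trp63 was at 616 to 625 CPM with high and 521 to 578 CPM with low Xist (0.18 ± 0.05, adjusted p = 0.134 in edgeR). Cebpb lay the other way, at 16.6 to 21.5 CPM with high and 22.1 to 27.0 CPM with low Xist (-0.34 ± 0.09, adjusted p = 0.115 in edgeR). Over all genes 9.83% did not overlap in this split. The Gata3 call was lost in 7 of 8 fits that left out 1 library and was kept only without Bmal1cKO replicate 1, with adjusted p of 0.00955 to 0.0721. The split sets replicates 1 and 3 against 2 and 4. Same-numbered libraries of the genotypes deviated together, so the 8 libraries may not be 8 independent values of the split. Each same-numbered pair also shares its side of the split, and libraries with different numbers on the same side deviated together too (r 0.155 to 0.347). Libraries with the same number had r 0.329 to 0.478. On its side of the split, each Bmal1cKO library had the higher r with the Bmal1WT library of its own number. Bmal1WT replicate 1, however, had 0.347 with Bmal1cKO replicate 3 against 0.329 with Bmal1cKO replicate 1. Whether libraries of the same number depend on each other beyond the split was not tested. With the counts of same-numbered libraries summed, 2 numbers against 2, Gata3 missed the threshold as well (0.39 ± 0.07, adjusted p = 0.127 in edgeR, with 26 genes called in place of 361).

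Markers of some immune cells moved with the same split. The summed level of 10 Langerhans cell markers was 540 to 638 CPM with high and 229 to 418 CPM with low Xist. All 10 were higher with high Xist, with a median log2 difference of 1.32, and 6 were called, against 1.84% of all genes. The calls of these markers come from the same added comparison, which called 26 genes in place of 361 with same-numbered libraries summed. Markers of 1 cell type can also move together, so the 10 are not separate pieces of evidence. The summed level of 10 macrophage and neutrophil markers was 12.9 to 16.3 and 9.11 to 11.8 CPM, also without overlap, and 1 of the 5 tested was called. The summed T cell markers overlapped, at 107 to 190 and 102 to 135 CPM, but the largest part of that sum is Thy1, which was lower with high Xist. The other 9 of the 10 T cell markers were all higher with high Xist, with a median log2 difference of 0.77 over the 10 and 0 called, and Cd3e was at 2.78 to 13.1 CPM over all libraries. All 10 hair matrix and inner root sheath markers, where Gata3 also acts, were lower with high Xist, with a median of -1.32 and 0 called. Their summed level overlapped, at 28.8 to 37.6 CPM with high and 24.6 to 94.5 CPM with low Xist, the highest being Bmal1WT replicate 4. The 7 melanocyte and 7 fibroblast markers tested were also all lower with high Xist, with medians of -0.44 and -0.92 and 0 called. The part of any of these cells in the Gata3 difference was not tested. A test of whether the genotype difference depends on the split called 1 of 19646 genes, and 0 of the 10. Among these Prdm1 had the smallest p (unadjusted p = 0.0276, adjusted p = 0.736 in edgeR), and none of the other 9 had an unadjusted p under 0.05.

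**Figure D2:**
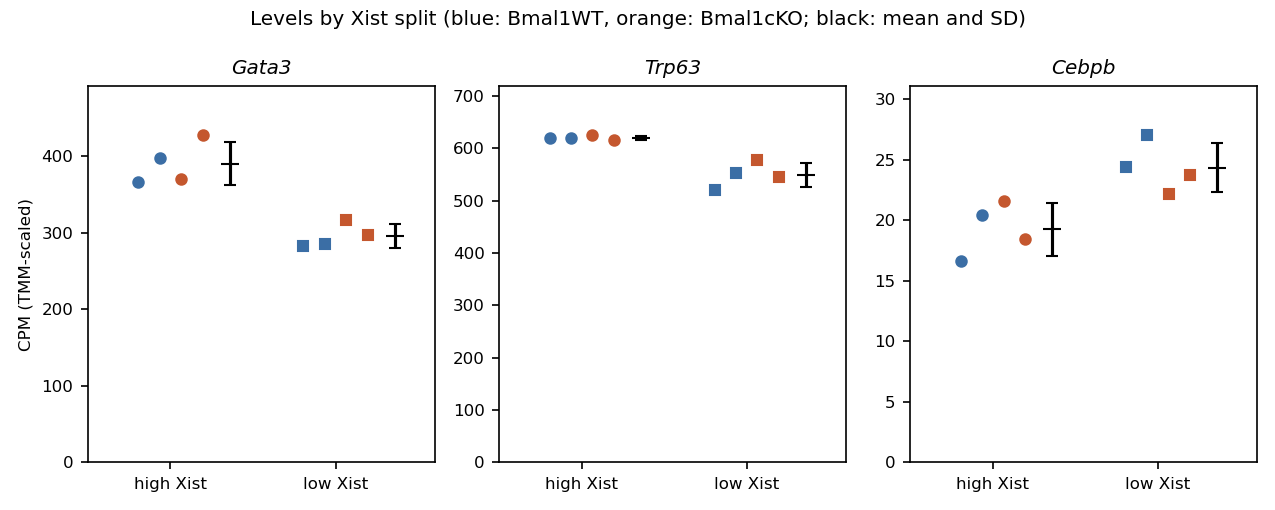
CPM on TMM-scaled library sizes (vertical axes, from 0) of Gata3, Trp63 and Cebpb in the 4 libraries with high and the 4 with low Xist. Blue is Bmal1WT, orange Bmal1cKO, black the mean and SD. Gata3 with high Xist sits at 366 to 428 CPM and with low Xist at 283 to 317 CPM, with both genotypes on either side.

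Prdm1 (ENSMUSG00000038151, chr10:44437177-44528501, minus strand) encodes BLIMP1, a repressor of the granular layer and of the sebaceous gland that also acts in immune cells. It was at 6.43, 5.49, 11.7 and 6.24 CPM in Bmal1WT replicates 1 to 4 and at 4.42, 4.89, 3.42 and 5.46 CPM in Bmal1cKO replicates 1 to 4. The groups did not overlap, but the nearest values were 0.0327 CPM apart, each with a counting error of 0.375 or 0.381 CPM, and 1 Bmal1WT library stood far above the rest. The log2 fold change was -0.72 ± 0.25 (SE), with an interval of -58.5% to -10.7%, and missed the threshold (unadjusted p = 0.0164, adjusted p = 0.453 in edgeR, 0.168 to 0.794 over the alternatives). Without Bmal1WT replicate 3 it was -0.41 (adjusted p = 0.604). It was -1.21 ± 0.32 in the libraries with high Xist, which hold that replicate, and -0.18 ± 0.16 in those with low Xist.

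The sequence around a start of Prdm1 is shown because it holds the single match of the letters TGANTCA, searched for AP-1, among the start windows of the 10 genes. N stands for any base, and the match is TGAATCA, with A in the middle. RefSeq on GRCm38.p6 gave 9 windows of 300 bases, 250 before to 50 after a start, for 7 of the 10. Trp63, Ovol1 and Zfp750 were not matched. The letters searched, on both strands, were CACGTG, the E-box read by BMAL1 and CLOCK, AGGTCA of ROR and REV-ERB receptors, GGAATG of the TEAD partners of YAP, TGANTCA of AP-1, AACNNGTT of GRHL factors and TTGCNNAA of C/EBP factors. Over all 32851 windows they were found in 7.15%, 16.3%, 14.7%, 7.81%, 4.20% and 10.8%. Among the 9, the E-box was in 1, the letters TGANTCA in 1 and the other 4 in 0. The matched letters TGAATCA in the window chr10:44458699-44458998, minus strand, are in capitals, with the first at -48 when the start base is 0. This start lies inside the span of the gene given above and not at its upstream end.
Prdm1 start: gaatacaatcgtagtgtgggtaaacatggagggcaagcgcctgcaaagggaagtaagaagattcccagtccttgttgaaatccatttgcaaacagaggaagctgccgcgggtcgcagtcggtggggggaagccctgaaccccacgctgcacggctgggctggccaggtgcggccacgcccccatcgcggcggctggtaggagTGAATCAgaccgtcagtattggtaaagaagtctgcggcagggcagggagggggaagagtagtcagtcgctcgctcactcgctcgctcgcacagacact

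Hopx (ENSMUSG00000059325, chr5:77086988-77115121, minus strand) encodes a small homeodomain protein that does not bind DNA and is found in hair follicle bulge cells and in differentiating keratinocytes. It was at 89.2, 86.0, 104.6 and 92.9 CPM in Bmal1WT replicates 1 to 4 and at 70.7, 84.2, 79.6 and 85.3 CPM in Bmal1cKO replicates 1 to 4. All Bmal1cKO values were the lower ones, with 0.723 CPM between the nearest libraries and a counting error of 1.49 and 1.51 CPM in these. The log2 fold change was -0.22 ± 0.08 (SE), with an interval of -24.0% to -3.06%, and missed the threshold (unadjusted p = 0.0192, adjusted p = 0.472 in edgeR, 0.265 to 0.839 over the alternatives). Without Bmal1WT replicate 3 it was -0.16 (unadjusted p = 0.0566 in edgeR) and without Bmal1cKO replicate 1 -0.17 (unadjusted p = 0.0513 in edgeR). It was -0.36 ± 0.11 with high and -0.07 ± 0.07 with low Xist. Hopx shares 412 bp of exon with Hopxos on the other strand, which had 521 counts in all against 28253.

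Of the 2 Hopx starts in RefSeq, the one inside the gene holds the single E-box of the 9 windows. It is shown for chr5:77095218-77095517, minus strand, with the E-box in capitals and its first base at -86. A match of letters is a description of the sequence and shows no binding.
Hopx inner start: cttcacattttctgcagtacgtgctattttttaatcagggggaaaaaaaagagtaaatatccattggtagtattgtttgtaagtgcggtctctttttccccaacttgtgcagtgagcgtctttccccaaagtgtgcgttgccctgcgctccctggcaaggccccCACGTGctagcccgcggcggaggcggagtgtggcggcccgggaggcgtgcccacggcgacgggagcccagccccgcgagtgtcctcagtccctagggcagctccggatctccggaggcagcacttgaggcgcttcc

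**Figure D3:**
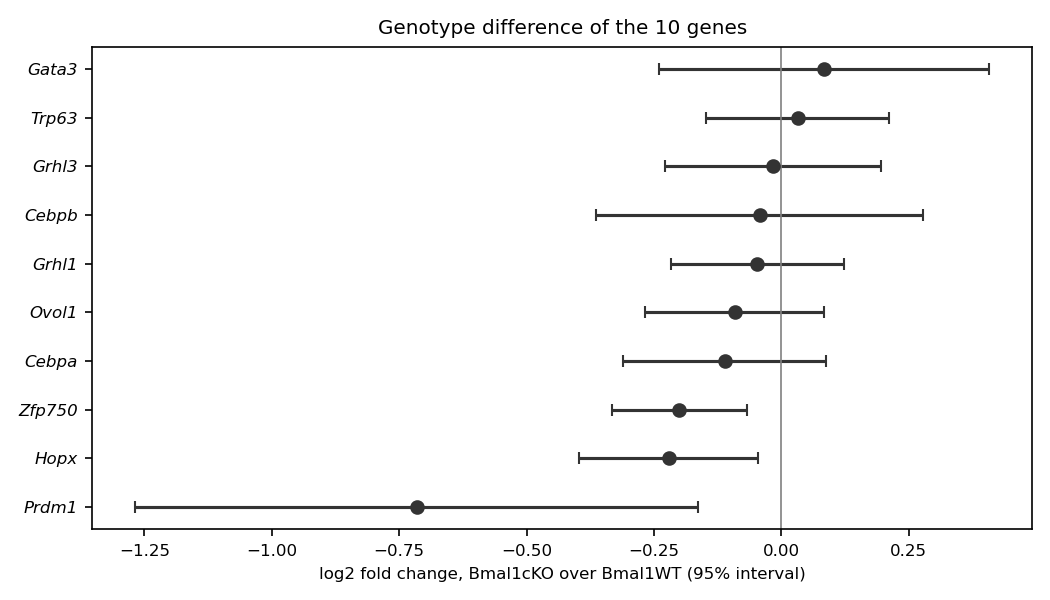
Log2 fold change of the 10 genes, Bmal1cKO over Bmal1WT (horizontal axis), with 95% intervals from the edgeR fit. The intervals of Zfp750, Hopx and Prdm1 lie below 0 before adjustment over all genes, and the other 7 include 0.

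The 3 genes that varied most over the 8 libraries, whatever the genotype, were Prdm1, Gata3 and Cebpb, with an SD of 0.51, 0.23 and 0.23 on the log2 CPM scale. Genes with near profiles were sought among the 12818 with at least 5 CPM on average. With so many genes and 8 libraries small distances can arise by chance, and the likeness was not tested. The genes whose scaled profiles over the 8 libraries were nearest, by mean squared difference, were Rpn1 (0.0295), BC005624 (0.0699) and Armc6 (0.0805) for Prdm1. For Gata3 they were Gm21974 (0.0248), the DNA methyltransferase gene Dnmt3a (0.0330) and Fn3krp (0.0363). For Cebpb they were Naa10 (0.0428), Eif3g (0.0570) and Atp5o (0.0844). Scaling removes the size of the changes: Rpn1 moved between 117 and 137 CPM, while Prdm1 moved between 3.42 and 11.7 CPM.

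The wider network of epidermal regulators was read from lists, and edgeR and voom called 0 genes of each. Counts of these lists and of those below stand against shares over all genes. These were 8.30% with an unadjusted p under 0.05 in edgeR, 1.18% called by DESeq2 and 0.774% called with the replicate block. Of 43 other epidermal transcription factor genes 7 had an unadjusted p under 0.05 in edgeR, 2 higher and 5 lower in Bmal1cKO, DESeq2 called 0, and the median log2 fold change was -0.04. The smallest p belonged to Tfap2c, which encodes an AP-2 factor of keratinocytes. It averaged 104 ± 5.09 CPM in Bmal1WT against 87.7 ± 5.41 CPM in Bmal1cKO (mean ± SD, n = 4), without overlap, with a log2 fold change of -0.24 ± 0.06 (SE; adjusted p = 0.235 in edgeR). Mxd1, a MYC antagonist of differentiating cells, was at 26.6 ± 2.20 and 23.0 ± 1.23 CPM (-0.21 ± 0.07, adjusted p = 0.450 in edgeR). Dlx3, a homeobox gene of the granular layer, was at 7.53 ± 1.77 and 4.91 ± 1.30 CPM (-0.62 ± 0.22, adjusted p = 0.463 in edgeR).

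Of 30 chromatin regulator genes with known roles in the epidermis 5 had an unadjusted p under 0.05 in edgeR, all higher in Bmal1cKO, DESeq2 called 0, and the median log2 fold change was 0.05. Ezh2, the methyltransferase gene of Polycomb complex PRC2 that holds back differentiation genes in basal cells, was at 40.1 ± 1.16 and 45.5 ± 3.13 CPM (SD, n = 4, log2 fold change 0.18 ± 0.06, adjusted p = 0.427 in edgeR). Chd4, which encodes the NuRD remodelling enzyme, was at 261 ± 8.43 and 289 ± 3.31 CPM without overlap (0.14 ± 0.05, adjusted p = 0.427 in edgeR). Uhrf1, a cofactor of maintenance DNA methylation, was at 30.2 ± 1.98 and 47.2 ± 17.4 CPM (0.64 ± 0.22, adjusted p = 0.454 in edgeR, 0.0207 with low Xist alone to 0.905 with high Xist alone). The Bmal1cKO libraries with low Xist were at 57.8 and 66.0 CPM and those with high Xist at 30.9 and 34.0 CPM, against 27.4 to 32.2 CPM in Bmal1WT.

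Genes reported elsewhere as targets of the 10 factors were taken next. Of 22 targets of p63 4 had an unadjusted p under 0.05 in edgeR, 1 higher and 3 lower, DESeq2 called 1, and the median log2 fold change was -0.01. The 3 lower ones, Zfp750, Tfap2c and Dlx3, were already counted above, Zfp750 among the 10 factors and the others among the other transcription factor genes. The integrin gene Itga3 averaged 143 ± 9.30 CPM in Bmal1WT against 171 ± 6.70 CPM in Bmal1cKO (mean ± SD, n = 4, 0.26 ± 0.06, adjusted p = 0.181 in edgeR, 0.00771 to 0.813 over the alternatives). Of 9 targets of GRHL factors 1 had such a p, DESeq2 called 0, and the median was -0.12. That gene, Arhgef19, which encodes a RhoA exchange factor under GRHL3, was at 43.4 ± 6.09 and 34.8 ± 1.33 CPM without overlap (-0.32 ± 0.09, adjusted p = 0.367 in edgeR). Tgm1, the transglutaminase gene of the cornified envelope and a GRHL3 target, was at 26.9 ± 4.74 and 20.6 ± 5.46 CPM (-0.39 ± 0.20, adjusted p = 0.657 in edgeR). Of 10 targets of C/EBP factors, OVOL1, GATA3, PRDM1 and ZFP750, 0 had an unadjusted p under 0.05, DESeq2 called 0, and the median was -0.10. Among them the spinous keratin gene Krt1 was at 3462 ± 2072 and 2189 ± 901 CPM (-0.66 ± 0.43, adjusted p = 0.760 in edgeR).

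Structural genes of the differentiated layers were listed separately, but Krt1, Krt10 and Tgm1 are also on the target lists. The same holds for Krt5, Krt14, Itgb4, Itga3 and Dst of the basal genes. Of 26 such genes 25 were tested, and all 25 had negative log2 fold changes, with a median of -0.66, and 7 had an unadjusted p under 0.05 in edgeR, with 0 called (2 by DESeq2, 1 with the replicate block). Flg, which encodes the granular layer protein filaggrin, was at 130, 357, 269 and 169 CPM in Bmal1WT replicates 1 to 4 and 64.5, 66.3, 34.9 and 90.5 CPM in Bmal1cKO, without overlap (-1.85 ± 0.35, adjusted p = 0.103 in edgeR, 0.00148 with DESeq2). The median was -0.29 without Bmal1WT replicate 3 and -0.41 without Bmal1WT replicate 2, and -0.39 and -0.32 in the libraries with high and low Xist. Over all alternatives the median of the 10 factors ran from -0.15, with low Xist alone, to -0.02, with high Xist alone. Of 16 basal genes 12 had positive values, with a median of 0.16, 7 with an unadjusted p under 0.05, and 0 called (5 by DESeq2, 1 with the replicate block). Over all genes tested 10408 of 19646 had negative values and 8.30% such a p, and DESeq2 called 1.18% and the replicate block 0.774%. The lists were chosen with results of these libraries known, and these counts describe them without a test of one list against another.

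**Figure D4:**
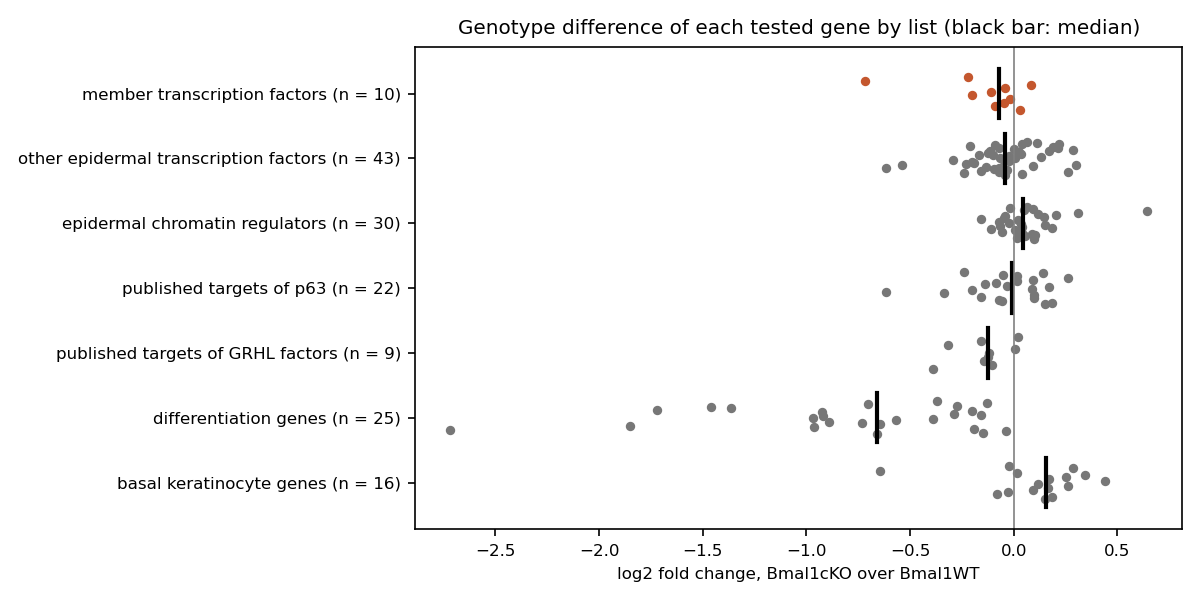
Log2 fold change of each tested gene, Bmal1cKO over Bmal1WT (horizontal axis), by list (vertical axis, with the number of genes), with a black bar at the median. The 10 factors (orange) have a median of -0.07 and the 25 differentiation genes one of -0.66.

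Markers of cells outside the interfollicular layers overlapped between the genotypes in their summed level. The 10 bulge markers were at 3849 to 4765 CPM in Bmal1WT and 3837 to 4559 CPM in Bmal1cKO, and 10 sebaceous gland markers at 879 to 1367 and 950 to 1536 CPM. Most of the bulge sum is Krt15, at 3466 ± 259 and 3275 ± 216 CPM (mean ± SD, n = 4). Krt15 is also on the list of basal genes, so this sum says little about bulge cells. Of the 10 bulge markers 4 had positive and 6 negative log2 fold changes, with a median of -0.03. The 10 markers of hair matrix and inner root sheath were at 32.0 to 94.5 and 24.6 to 43.5 CPM, 8 melanocyte markers at 25.0 to 43.4 and 19.6 to 45.0 CPM, and 8 fibroblast markers at 50.6 to 114 and 72.0 to 105 CPM. Macrophage and neutrophil markers, 10 genes of which 7 averaged under 1 CPM, came to 9.11 to 16.3 and 11.4 to 14.1 CPM, with the neutrophil gene Ly6g near 0. Langerhans cell markers were at 229 to 609 and 277 to 638 CPM and epidermal T cell markers at 102 to 140 and 107 to 190 CPM. A sum is set by the most abundant markers, and single genes did not always follow it. Of the 10 hair matrix and inner root sheath markers 9 had negative log2 fold changes, Bmal1cKO over Bmal1WT, with a median of -0.84 that was 0.04 without Bmal1WT replicate 4. Of 7 fibroblast markers tested 6 were negative, with a median of -0.93 that was -0.05 without the same library, while Sparc, which makes up most of their sum, had 0.55 ± 0.16 (SE, adjusted p = 0.369 in edgeR). Of the 10 T cell markers 9 were negative, with a median of -0.30, and Thy1 had 0.54 ± 0.17 (SE, adjusted p = 0.421 in edgeR). These lists thus had negative medians beside that of the differentiation genes, whose median without Bmal1WT replicate 4 was -0.77. Of all these genes edgeR and voom called 0, DESeq2 called 1 macrophage or neutrophil marker and the replicate block 1 T cell marker, and the part of such cells in the levels of Prdm1, Cebpa, Cebpb, Gata3 and Hopx was not tested.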

How the data were processed

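Gene counts of 8 epidermal RNA libraries (4 Bmal1WT, 4 Bmal1cKO, grouped and numbered by title) were used. The authors deposited unnormalised counts, 1 row per Ensembl identifier. The tools named are STAR 2.7.10a, featureCounts and Trim Galore, on the build GRCm38 (mm10), per the submitters' processing notes. For the annotation release and the strand setting the sources used here give nothing. GENCODE M21 named 33974 of 34070 identifiers. The stranded polyA libraries held 35685261 to 50396156 counts.

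Counts were tested across all genes with edgeR 4.0.16 in R 4.3.3 (filterByExpr with minimum count 10 and minimum total count 15, TMM, quasi-likelihood F-test, two-sided, genotype as the only term, Benjamini-Hochberg over 19646 genes, called under 0.05). The script was tested on simulated data. CPM are on TMM-scaled sizes, and intervals are 95% intervals of the fit. No 2 libraries of a group agreed within sampling noise. Same-numbered libraries deviated together (r across genes 0.329, 0.478, 0.388 and 0.367, over the minimum of 0.1), so the replicate block was an alternative. Libraries of the genotypes with different numbers on the same side of the Xist split did so too (0.347, 0.155, 0.164 and 0.17). Those on opposite sides had negative r (-0.441 to -0.176), so pairing by number and the Xist split cannot be fully told apart. The further alternatives were other scalings and filters, DESeq2 1.42.0, limma 3.58.1 voom, the Xist split (above or below 100 CPM) and leaving out each library. The genes and lists were chosen with earlier results of these data known. The comparison of high with low Xist with its sums of same-numbered libraries, and the alternatives of the list medians were added after the data were seen. From each list the called genes, or up to 3 with the smallest p, could be named.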

Additional observations from a re-analysis of the deposited data

Results flagged for a closer look

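Within groups of 4 libraries, 1 value stood far from the other 3 in 4 of the 36 groups of values examined, where chance gives about 1 in 20. Prdm1 was at 11.7 CPM in Bmal1WT replicate 3, against 5.49 to 6.43 CPM in the other 3. Grhl3 was at 75.1 CPM in Bmal1WT replicate 2, against 67.6 to 68.1 CPM. Zfp750 was at 143.9 CPM in Bmal1cKO replicate 1, against 130.9 to 131.5 CPM. The summed hair matrix and inner root sheath markers were at 94.5 CPM in Bmal1WT replicate 4, against 32.0 to 37.6 CPM, and Prdm1 in that library was at 6.24 CPM, within the range of its group.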

How the results depend on the processing

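Under all 18 alternatives 0 of the 10 transcription factor genes were called, and Zfp750, Prdm1, Hopx and Cebpa kept a negative sign. Over all genes edgeR called 34, against 152 with the replicate block, 119 with the Xist split as a term, 246 with DESeq2 and 71 with no filter on low counts. It called 13 in the libraries with high and 101 in those with low Xist alone, where each group holds 2 libraries, and 23 to 32 when 1 library was left out. The sign of 3 genes turned with high Xist, to 0.034 for Ovol1, 0.11 for Grhl3 and 0.11 for Cebpb on the log2 scale. When 1 library was left out, values ran from -0.0083 to 0.076 for Trp63, -0.10 to 0.072 for Grhl3, -0.10 to 0.019 for Grhl1, -0.16 to 0.076 for Cebpb and -0.016 to 0.18 for Gata3. The cause of these turns was not tested. Without Bmal1WT replicate 2, Ovol1 went from -0.09 to -0.044 and Cebpa from -0.11 to -0.035. The Gata3 difference by Xist kept its size and lost its call with same-numbered libraries summed (0.39, adjusted p = 0.127). The Xist comparison of Cebpb passed without Bmal1cKO replicate 1 (adjusted p = 0.0495). Prdm1, with 122 to 592 counts per library, has the fewest counts of the 10 genes.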
